A study of Mus musculus with 16 samples.

Results

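The heat shock chaperones examined here are 10 genes, Bag3, Hsp90aa1, Hsp90ab1, Hspa8, Hspb1, Hsph1, Hspd1, Hspe1, Dnaja1 and Dnajb1. A gene was included where the platform annotation assigned a row of the deposited table, called a transcript cluster, to it and to no other gene, and where a gene had several such clusters that of the highest mean intensity stood for it. This gave 9 genes, all of which passed the filter on dim genes, of 18820 genes with a cluster of their own and 14275 tested. Hsp90ab1 had no cluster assigned to it and was not analysed here.

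Liver RNA came from 16 male C57BL/6J mice aged 12 months, with 1 Affymetrix Mouse Gene 1.1 ST array per mouse. From 9 weeks of age the mice were fed a control diet (C), a diet with 30% fewer calories (CR), a medium-fat diet with 25% of energy from fat (MF), or an intermittent diet (INT) in which weeks of MF ad libitum and weeks of 40% calorie restriction alternated. INT mice were taken during a week on MF. All mice were fasted for 4 h, given 160 mg/kg of the PPARα agonist WY14,643 (Wy) or only its vehicle, 0.5% carboxymethyl cellulose (mock), through a stomach tube, and fasted for 6 h more. Each of the 4 diets had 4 mice, 1 mock and 1 Wy mouse of high and 1 of each of low body weight, so that each diet by treatment group held 2 mice and the series held 8 pairs matched by diet and body weight class. The mice were chosen for their extreme weights, which is a limit of the body weight comparison, and every mouse was fasted, mock mice included. An array is called, for example, high C mock after the weight class, the diet and the treatment of its mouse, and values are log2 intensities.

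Heat shock proteins keep other proteins folded. Heat shock factor 1 (HSF1), held inactive by chaperones in unstressed cells, binds arrays of short inverted repeats called heat shock elements when unfolded proteins accumulate, and switches on the genes of this family. HSP70 proteins such as the constitutive Hspa8 bind unfolded stretches with the help of J-domain proteins (Dnaja1, Dnajb1), nucleotide exchange factors (Hsph1, also called HSP110) and the co-chaperone Bag3, which links HSP70 to small heat shock proteins and to selective autophagy. Hsp90aa1 encodes the inducible cytosolic HSP90, Hspb1 the small heat shock protein that holds unfolded proteins in solution, and Hspd1 and Hspe1 the HSP60 and HSP10 that together form the folding chamber of mitochondria. In liver these proteins serve a tissue with a high rate of protein synthesis and of oxidative metabolism.

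RefSeq promoter windows (GRCm38.p6, 250 bases before to 50 after a transcription start) were given for 7 of the 10 genes, in 12 windows. Hsp90aa1, Hsp90ab1 and Hspa8 were not matched. The windows were searched for the units of the heat shock element, GAA and its inverse TTC, alternating with gaps of any 2 bases, which reads the same on both strands. The stretches below are shown because they hold the longest run of such units among the members, the pair of separate matches of Hspb1 and the match before a start of Hsph1, and the capitals mark matches to GAANNTTC or TTCNNGAA, which may overlap each other.
Hspe1: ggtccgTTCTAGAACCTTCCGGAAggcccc
Hspb1: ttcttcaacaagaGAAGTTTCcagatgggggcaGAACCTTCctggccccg
Hsph1: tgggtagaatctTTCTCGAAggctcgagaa
The Hspe1 stretch lies at chr1:55088053-55088082 on the plus strand, that of Hspb1 at chr5:135887789-135887838 on the plus strand, and that of Hsph1 at chr5:149636352-149636381 on the minus strand. Hspe1 and Hspd1 lie head to head, and the run of 4 alternating units stood from -89 to -72 relative to the Hspe1 start. On the other strand it stood from -144 to -127 relative to 1 of the 2 Hspd1 starts. The other Hspd1 start lies past the Hspe1 start, so that the run falls after it and outside its window. A run of 4 units was found in 0.0244% of all 32851 windows and a run of 3 in 0.603%. GAANNTTC was found in 7.86% of windows and TTCNNGAA in 8.52%. In Hspb1 the matches began at -117 and -97, in Hsph1 a further run of 3 units lay after the start in both windows, Dnaja1 had a match in 1 of 3 windows, at -124, and Bag3 had its match 43 to 50 bases into the transcript. No match was found in the 2 windows of Dnajb1. These are matches of letters and were not tested as binding sites.

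The tissue check came first. All 7 hepatocyte markers (Alb, Apoa1, Apob, Ttr, Cps1, Tat, Hnf4a) were among the tested genes, and 4 of 5 tested PPARα targets were higher with Wy, including Acot1 by 3.08 ± 0.15 (SE) and Ehhadh by 1.46 ± 0.10 on the log2 scale. Medians of the arrays over tested genes were 7.067 to 7.209, correlations between arrays 0.9679 to 0.9954, and plate codes in the labels placed 14 arrays on one plate and the 2 high INT arrays on another. Whole liver was measured, so that fewer cells of a type and less RNA per cell cannot be told apart. Nothing but the body weight class was given of a mouse's weight, and 1 mouse stands behind each array.

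The Wy comparison asks which chaperone transcripts differed 6 h after the agonist. Bag3, Hsp90aa1 and Hspe1 rose, by 1.43-fold, 1.46-fold and 1.20-fold, and the other 6 members did not pass the test although all 9 fitted differences were above 0. With 3 of 9 members called as higher, the share of all tested genes called as higher was 12.3%. The members' median difference was 0.27 on the log2 scale, against -0.01 over all tested genes, and 8 of 9 members had an unadjusted p under 0.05, as had 38.7% of all tested genes.

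Bag3, the co-chaperone of HSP70, had values from 8.09 to 9.18 with a median of 8.39 in the 8 mock arrays, and from 8.66 to 9.48 with a median of 8.91 in the 8 Wy arrays. The mock array of the high MF pair was above most Wy arrays, so the groups overlapped, but Bag3 was higher with Wy in 8 of 8 pairs, by 0.28 to 0.88. The fitted difference was 0.52 ± 0.07 (SE, adjusted p = 0.000258, limma). Hsp90aa1, the inducible HSP90, ranged from 10.08 to 11.03 (median 10.30) in mock and from 10.66 to 11.17 (median 10.95) in Wy arrays. Of the mock arrays only high MF mock, at 11.03, lay within the Wy range, and 7 of 8 pairs were higher with Wy. The difference was 0.55 ± 0.10 (adjusted p = 0.00146, limma).

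Hspe1, the lid of the mitochondrial folding chamber, ranged from 10.81 to 11.04 (median 10.93) in mock and from 11.01 to 11.36 (median 11.17) in Wy arrays. The 2 groups overlapped only through the high MF pair, where mock was at 11.04 and Wy at 11.01. Its difference was 0.27 ± 0.05 (adjusted p = 0.00341, limma), with 7 of 8 pairs higher. Its partner and head-to-head neighbour Hspd1 ranged from 11.50 to 11.88 in mock and from 11.71 to 11.89 in Wy arrays, and was also higher in 7 of 8 pairs. The difference was 0.14 ± 0.05 and missed the threshold (adjusted p = 0.0539, limma), with a 95% confidence interval of 0.03 to 0.24.

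Among the HSP70 members, Hsph1, the exchange factor, had the widest change between pairs. It ranged from 7.69 to 8.68 (median 8.28) in mock and from 7.73 to 9.18 (median 8.84) in Wy arrays, and the pairs differed by -0.94 to 1.43. The difference of 0.47 ± 0.19 was not called (adjusted p = 0.0945, limma). Hspa8, the constitutive HSP70, moved little, with a difference of 0.12 ± 0.05 (adjusted p = 0.113, limma) and 6 of 8 pairs higher. The J-domain genes Dnaja1, at 0.16 ± 0.06 with 6 of 8 pairs higher (adjusted p = 0.0918, limma), and Dnajb1, at 0.10 ± 0.08 with 4 of 8 (adjusted p = 0.369, limma), were not called either. The interval of Dnajb1 ran from -0.07 to 0.27. Hspb1, the small heat shock protein, ranged from 8.01 to 10.38 in mock and from 8.44 to 10.26 in Wy arrays, so that the groups overlapped almost wholly. Its difference was 0.45 ± 0.20 (adjusted p = 0.124, limma), with 7 of 8 pairs higher.

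**Figure D1:**
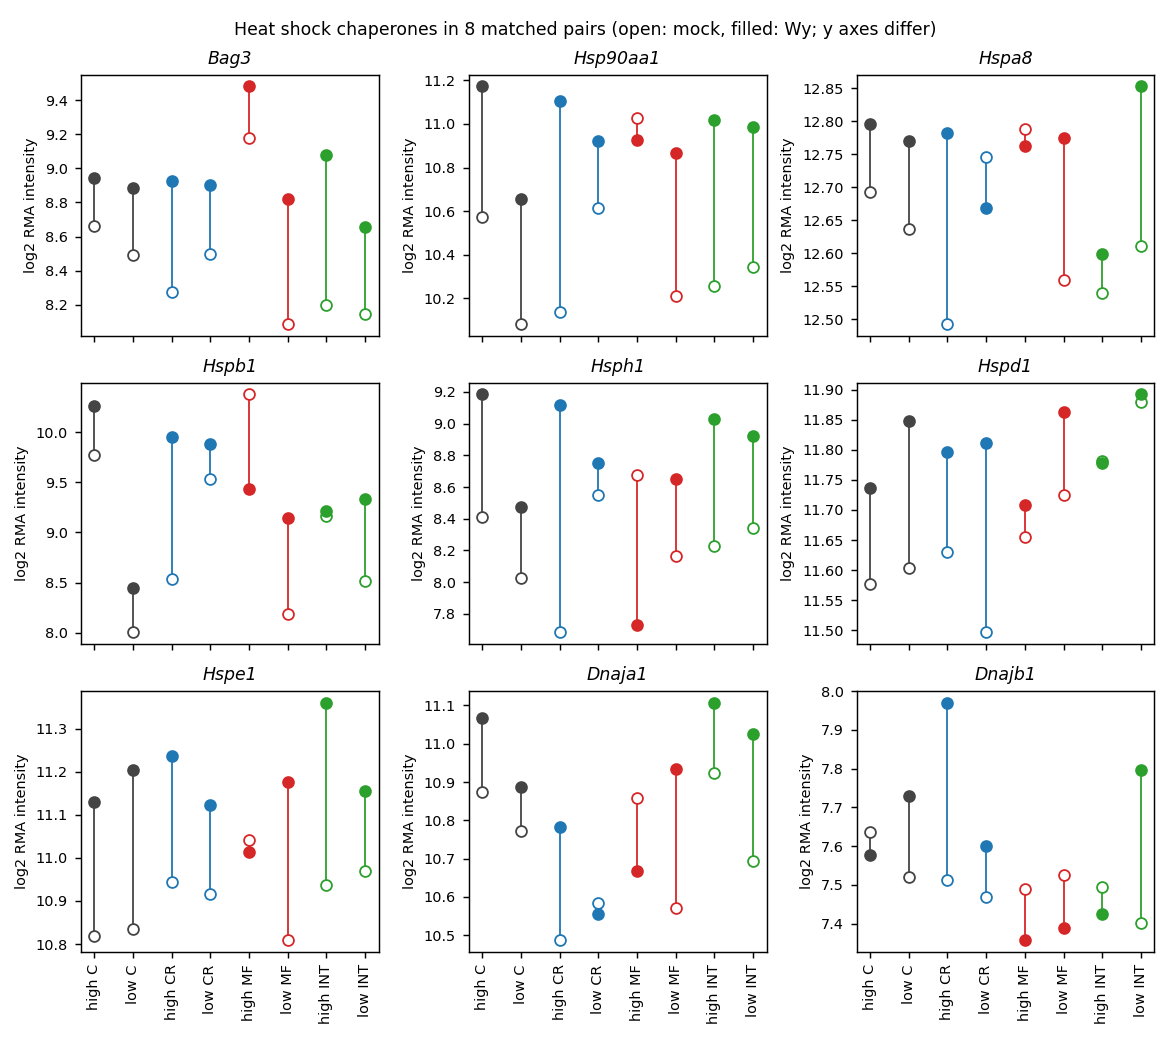
Log2 RMA intensity of the 9 measured chaperones in the 8 matched pairs of diet and body weight class, with mock as open and Wy as filled points joined by a line and with a separate y axis for each gene. Bag3 was higher with Wy in 8 of 8 pairs, while in the high MF pair 7 of 9 genes were lower with Wy.

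The high MF pair stood apart from the others. In it 2 of 9 members were higher with Wy, Bag3 by 0.30 and Hspd1 by 0.05, against 7 to 9 of 9 in each of the other pairs. The Wy minus mock difference there was -0.94 for both Hsph1 and Hspb1, and -0.10 for Hsp90aa1. The mean difference over the members was -0.22 in that pair and 0.20 to 0.66 in the other 7. The mock mouse of the pair had the highest Bag3, Hsp90aa1, Hspb1 and Hsph1 values of all mock mice, at 9.18, 11.03, 10.38 and 8.68. With both arrays of the pair left out, an alternative chosen after seeing the data, 6 members were called, the 3 above and Hsph1 at 0.68 (adjusted p = 0.0023), Hspb1 at 0.65 (adjusted p = 0.00632) and Dnaja1 at 0.21 (adjusted p = 0.0213, limma). In that fit 11.6% of all tested genes were called as higher. Arrays centred on their median also gave 6 calls, with Hspa8, Hspd1 and Dnaja1 added to the same 3, where 15.3% of all tested genes were called as higher. Over all tested genes centring turned 1755 higher and 2283 lower calls into 2190 and 1876.

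Whether the Wy difference itself varied was tested by interaction terms. For diet, 0 of 9 members were called, at 0% of all tested genes, and for body weight class likewise 0 of 9, at 0%. No member reached an unadjusted p under 0.05 in either limma test, against 669 and 673 of all tested genes. With 4 and 6 residual degrees of freedom the intervals were wide. For Hspb1 the Wy difference in CR minus that in C was 0.43, with an interval of -0.91 to 1.77.

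**Figure D2:**
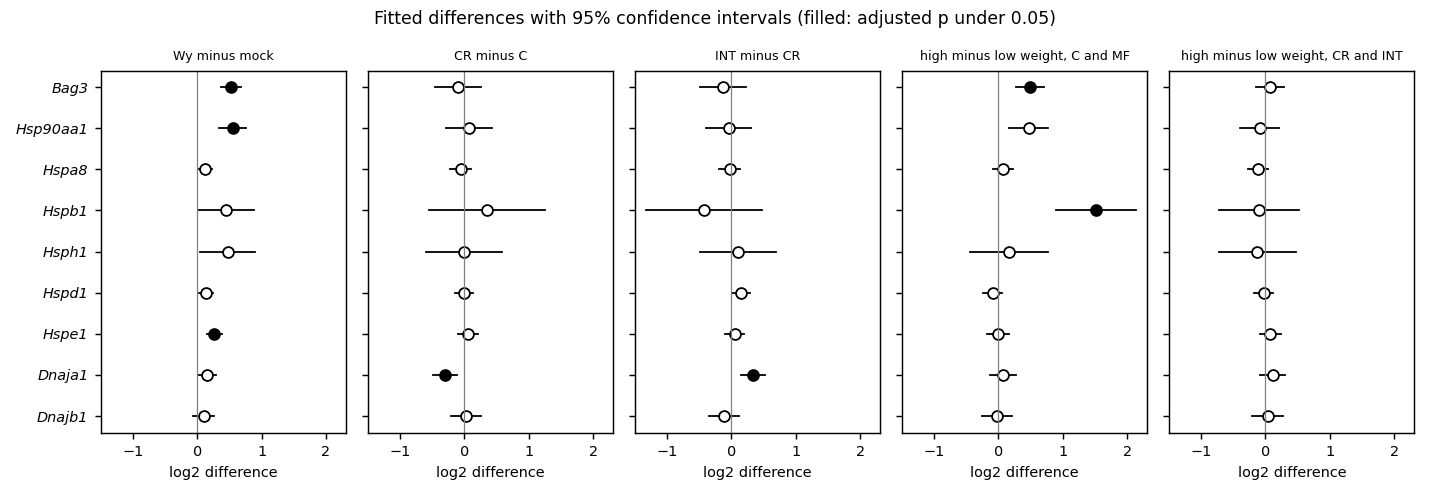
Fitted log2 differences of the 9 chaperones with 95% confidence intervals for Wy against mock, CR against C, INT against CR, and high against low body weight in C and MF and in CR and INT, with filled points at an adjusted p under 0.05. Bag3, Hsp90aa1 and Hspe1 are filled for Wy, Dnaja1 for both diet contrasts, and Bag3 and Hspb1 for body weight in C and MF.

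The diet comparison asks whether the level of these genes differed between the diets. Long-term diet and recent feeding cannot be told apart in it, since CR mice received daily portions and INT mice were taken in an MF week. Of the members, Dnaja1, a J-domain partner of HSP70, changed, being lower in CR than in C and in INT. Its values were 10.87, 11.07, 10.77 and 10.89 in C (high mock, high Wy, low mock, low Wy), and 10.49, 10.78, 10.58 and 10.55 in CR in the same order. The highest CR array, high CR Wy, was just above the lowest C array, low C mock, and the other CR arrays were below all C arrays. In INT the values were 10.92, 11.11, 10.69 and 11.03, and in MF 10.86, 10.67, 10.57 and 10.93.

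Dnaja1 was 1.23-fold lower in CR than in C, at -0.30 ± 0.08 (adjusted p = 0.0389, limma), and lower in 4 of 4 comparisons matched for body weight class and treatment, with differences of -0.39 to -0.19. It was 1 of 9 members called as lower, against 5.98% of all tested genes. INT mice exceeded CR mice 1.26-fold, at 0.34 ± 0.08 (adjusted p = 0.0231, limma), in 4 of 4 matched comparisons, and this too was 1 of 9 members, against 5.57% of all tested genes. The 2 contrasts share the CR arrays. The F test over the 4 diets called 0 of 9 members, against 9.86% of all tested genes, with Dnaja1 at an adjusted p of 0.0536 (limma). The call in CR against C was lost in 7 of 16 fits that left out 1 array (adjusted p from 0.0649 to 0.106), and within mock arrays alone (-0.29, adjusted p = 0.388) or Wy arrays alone (-0.31, adjusted p = 0.412, limma). It was also lost with arrays centred on their median (-0.26, adjusted p = 0.0637), with the first plate alone (adjusted p = 0.0546) and with the pair as a random block (adjusted p = 0.0567, limma). Between INT and CR it was lost in 5 of 16 (adjusted p from 0.0593 to 0.0698) and with the arrays of the first plate alone (0.29, adjusted p = 0.219), mock arrays alone (0.27, adjusted p = 0.359) or Wy arrays alone (0.40, adjusted p = 0.294, limma).

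The other 8 members did not pass in any diet contrast. For Hspb1 the CR minus C difference was 0.35 ± 0.42, with an interval of -0.55 to 1.25, and for Bag3 it was -0.10, with -0.45 to 0.26. MF against C called 0 of 9 members (0% of all tested genes), INT against C 0 of 9 (0.00701%), INT against MF 0 of 9 (0%) and CR against MF 0 of 9 (12.7%). In these 4 limma contrasts 0, 1, 1 and 0 members had an unadjusted p under 0.05, against 4.40%, 9.84%, 11.4% and 27.5% of all tested genes. CR livers also differed from C in markers of other cells. Of 5 tested lymphocyte markers 1 was lower (Cd79b -0.77), with a log2 summed level of 7.50 to 7.92 in CR and 7.79 to 8.59 in C. Of 7 stellate markers 2 were lower (Col1a1 -0.42, Pdgfrb -0.41), with 12.27 to 12.47 against 12.28 to 12.57, while Lrat was at 0.24 and not called. The 1 erythroid marker, Alas2, was lower (-1.34). None of 6 monocyte and macrophage markers was called, yet they ran from -1.14 to -0.25 with a median of -0.45. The 6 endothelial markers were not called either, with Lyve1 at -0.86 and a list median of 0.03. Over all tested genes 5.98% were called as lower and 4.54% as higher. The part of these markers in the Dnaja1 difference was not tested. Of 7 hepatocyte markers 1 was called, Tat at 0.65. Between INT and CR, Alas2 (1.45) and 1 of 5 lymphocyte markers, Cd79a (0.82), were higher, with summed lymphocyte levels of 7.76 to 8.38 in INT. In the same contrast 2 of 7 hepatocyte markers, Tat (-0.76) and Cps1 (-0.26), were lower. Of all tested genes 5.57% were called as higher there and 4.28% as lower. The part of these markers in the Dnaja1 difference was not tested either.

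The body weight comparison asks whether chaperone levels went with the weight of the mouse. C and MF mice were taken apart from CR and INT mice, whose intake was restricted all or part of the time. The paper on this experiment describes a wide spread of body weight in C and MF and very low variation in CR and INT. The high and low classes of CR and INT may therefore lie close in weight, and the weights themselves were not given. In C and MF mice Hspb1 was 2.86-fold and Bag3 1.41-fold higher in the high than in the low weight class, while in CR and INT no member passed. Hspb1 values in the high class were 9.78 (C mock), 10.26 (C Wy), 10.38 (MF mock) and 9.43 (MF Wy), and in the low class 8.01, 8.44, 8.19 and 9.14 in the same order. The 2 classes did not overlap. The fitted difference was 1.52 ± 0.28 (adjusted p = 0.0126, limma), and Hspb1 was higher in 4 of 4 matched comparisons, by 0.29 to 2.19.

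Bag3 stood at 8.66, 8.95, 9.18 and 9.48 in the high class and at 8.49, 8.89, 8.09 and 8.82 in the low class, in the same order. The high C mock array was below 2 of the low arrays, so the classes overlapped. The difference was 0.49 ± 0.10 (adjusted p = 0.0158, limma), higher in 4 of 4 comparisons by 0.06 to 1.09. The size was uneven between the diets, at 0.87 ± 0.14 in MF (adjusted p = 0.0104, limma) and 0.11 ± 0.14 in C (adjusted p = 0.824, limma), a comparison of the diets one by one that was added after the data were seen, and in which Hspb1 passed in neither, at 1.79 ± 0.40 in C (adjusted p = 0.0945) and 1.24 ± 0.40 in MF (adjusted p = 0.108, limma). With 2 of 9 members called as higher, 4.67% of all tested genes were.

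Hsp90aa1 was at 10.57, 11.17, 11.03 and 10.92 in the high and 10.08, 10.66, 10.21 and 10.87 in the low class. It was higher in 4 of 4 comparisons, yet the difference of 0.47 ± 0.14 missed the threshold (adjusted p = 0.0632, limma). Hsph1 was at 0.17 ± 0.27, and the mitochondrial pair showed no rise, Hspd1 at -0.09 with an interval of -0.24 to 0.06 and Hspe1 at -0.01 with -0.17 to 0.16. Without the high MF Wy array, Hsp90aa1 was called as well, at 0.65 (adjusted p = 0.00741, limma), and without either high CR array its adjusted p was 0.0498. The Bag3 call was lost when high C mock, high MF mock, low C Wy or low MF mock was left out (adjusted p from 0.0719 to 0.0845), and that of Hspb1 without low C Wy (0.0539) or low MF mock (0.0709, limma).

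In CR and INT the Hspb1 values were 8.53, 9.95, 9.17 and 9.22 in the high class (CR mock, CR Wy, INT mock, INT Wy) and 9.53, 9.89, 8.51 and 9.34 in the low class. The classes overlapped fully, and the difference was -0.10, with an interval of -0.72 to 0.52. Bag3 differed by 0.07 (-0.15 to 0.29) and Hsp90aa1 by -0.09 (-0.39 to 0.22). Here 0 of 9 members were called, at 0% of all tested genes, and none had an unadjusted p under 0.05 in limma. The difference between the 2 body weight effects was 1.61 ± 0.40 for Hspb1 (adjusted p = 0.0895), 0.42 for Bag3 (adjusted p = 0.189) and 0.56 for Hsp90aa1 (adjusted p = 0.212, limma). It called 0 of 9 members, against 0.855% of all tested genes, and 3 had an unadjusted p under 0.05, as had 14.1% of all tested genes. Leaving out 1 array made calls in 2 cases. Without high MF Wy, Hspb1 was at 2.01 (adjusted p = 0.0114) and Hsp90aa1 at 0.74 (adjusted p = 0.0305), and without high CR Wy, Hspb1 was at 1.89 (adjusted p = 0.0386, limma). Over all 4 diets together the high minus low contrast called 0 of 9 members (0% of all tested genes, limma), of which 2 had an unadjusted p under 0.05, as had 14.0% of all tested genes.

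**Figure D3:**
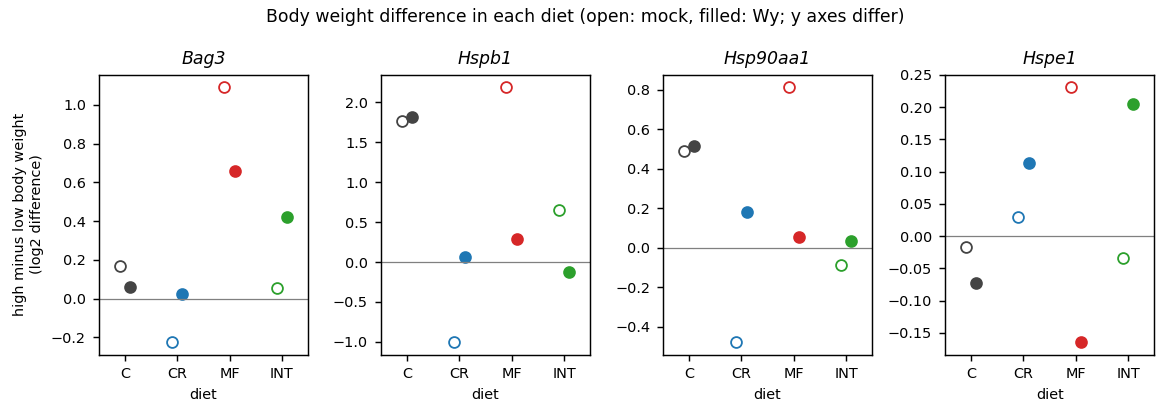
High minus low body weight log2 difference of Bag3, Hspb1, Hsp90aa1 and Hspe1 in each diet, 1 point per matched comparison, open for mock and filled for Wy, with a separate y axis for each gene. Bag3, Hspb1 and Hsp90aa1 lie above 0 in all C and MF comparisons, and in CR and INT the points fall on both sides of 0.

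Markers of other cells moved with body weight in the same C and MF mice. Of 6 monocyte and macrophage markers 5 were higher in the high class, with Ccr2 at 1.07, Itgax at 1.23 and Trem2 at 0.88, and the log2 of their summed level was 10.55 to 11.30 in the high and 10.20 to 10.47 in the low class. Of 7 stellate markers 2 were higher (Col1a1 0.55, Col3a1 0.53), with summed levels of 12.45 to 12.62 against 12.28 to 12.44, and of 6 endothelial markers 2 were higher (Lyve1 0.97, Pecam1 0.28), with 12.38 to 12.56 against 12.28 to 12.35. The other endothelial markers were not called, with Kdr at -0.28, and the list's median was 0.09. Of 7 Kupffer markers 1 was called, Timd4 as lower (-0.71), yet the list's median was 0.37, with Vsig4 at 0.45, Adgre1 at 0.42, Csf1r at 0.39 and Cd5l at 0.37, none of them called, and summed levels of 11.76 to 12.36 in the high and 11.72 to 11.88 in the low class. The erythroid marker Alas2 was lower (-0.45), at 9.21 to 9.55 against 9.74 to 10.04, and of 7 hepatocyte markers 1 was lower (Cps1 -0.28). None of 5 tested lymphocyte markers was called, yet they ran from 0.07 to 0.46 with a median of 0.29. Their summed levels were 8.05 to 8.59 in the high and 7.79 to 8.24 in the low class. Over all tested genes 4.67% were called as higher and 2.72% as lower. The part of these markers in the Hspb1 and Bag3 differences was not tested. Among stress genes Atf3 (0.77) and Nqo1 (0.93) were higher, 1 of 8 immediate early and 1 of 6 oxidative stress genes, and of the 2 tested heat shock factors Hsf2 was lower (-0.47) and Hsf4, at -0.19, was not called. None of the 10 HSP90 co-chaperones, 16 HSP70 partners, 8 TRiC subunits, 9 other mitochondrial chaperones or 15 endoplasmic reticulum (ER) chaperones passed.

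Other chaperone systems were counted in the Wy comparison by the same test. Over all tested genes 12.3% were called as higher and 16% as lower with Wy. Both tested heat shock factors were lower with Wy, Hsf4 at -0.63 ± 0.09 and Hsf2 at -0.31 ± 0.08. Hsbp1, which binds heat shock factors, was at 0.08 and not called, and Hsf1 was not analysed here. Hspb8, the small heat shock protein that works with Bag3, rose by 0.45 ± 0.08 and Hspb6 by 0.30 ± 0.07, 2 of 6 other small heat shock proteins, and Hspb8 was also the 1 of 6 other heat-inducible genes that passed. Of 16 HSP70 partners 3 rose, the J-domain gene Dnaja2 (0.32), the exchange factor Hspa4 (0.27) and Bag5 (0.25), and 1 fell, with a list median of 0.08. Of 10 HSP90 co-chaperones 2 rose, Ahsa1 (0.23), which speeds the ATPase of HSP90, and Unc45a (0.25).

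Of the 8 subunits of TRiC, the cytosolic chaperonin that folds actin and tubulin, 3 rose (Cct3 0.24, Cct2 0.18, Tcp1 0.15). Of 9 other mitochondrial chaperones and proteases 4 rose, among them Grpel1 (0.36 ± 0.04), the exchange factor of mitochondrial HSP70, Clpx (0.57 ± 0.12) and Dnaja3 (0.17). Of 15 ER chaperones 2 were higher and 6 lower, against 12.3% and 16% of all tested genes, and their median was -0.20. Dnajb9, an ER J-domain protein, rose by 0.32, while Herpud1, which serves the degradation of ER proteins, and the disulfide isomerase Pdia6 fell, at -0.37 and -0.33. Of 8 immediate early genes Jun rose, by 1.05 ± 0.20. Of 6 oxidative stress genes Srxn1 (0.48) and Hmox1 (0.40), the heme oxygenase that heat also induces in rodents, rose, and Gclm fell, at -0.36. No Kupffer, monocyte, endothelial or stellate marker passed with Wy, and of 7 hepatocyte markers 2 were lower (Cps1 -0.32, Tat -0.39). The 1 tested adipocyte marker, Plin1, was higher, by 0.16 (adjusted p = 0.0207, limma).

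**Figure D4:**
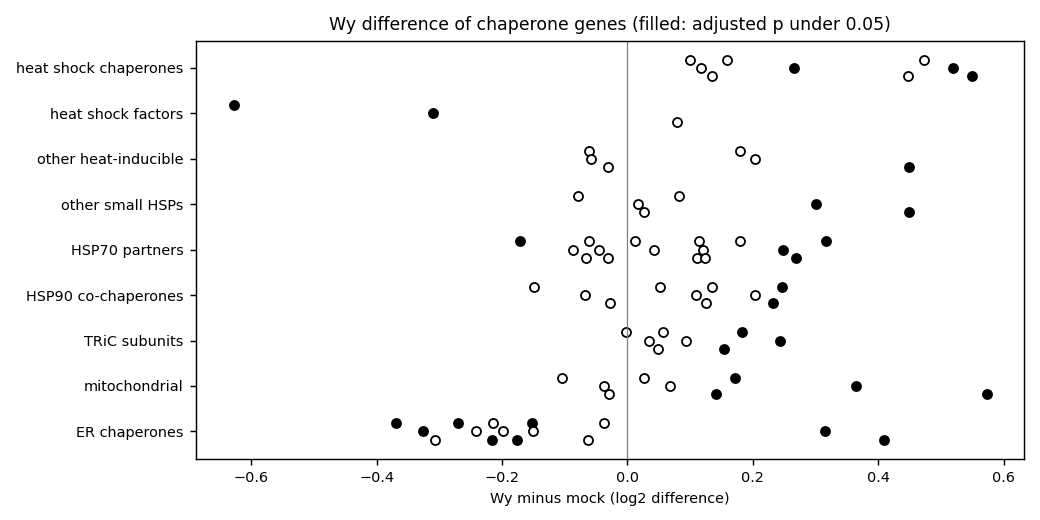
Wy minus mock log2 difference of every tested gene of the heat shock chaperones and of 8 other lists, 1 point per gene, filled at an adjusted p under 0.05 and offset vertically only for legibility, with genes of 2 lists drawn in both. All 9 heat shock chaperones lie above 0, and the ER chaperones have a median of -0.20.

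Among diets, the HSP70 partners moved in both directions between CR and C, 3 of 16 higher and 1 lower, against 4.54% and 5.98% of all tested genes, with the heat-inducible J-domain gene Dnaja4 at 0.80, Hspa2 at 0.81 and Bag4 at -0.34. Dnaja1 was thus lower in CR where its relative Dnaja4 was higher. The HSP90 co-chaperone Fkbp4 (0.41), the TRiC subunits Cct7 (0.30) and Cct5 (0.25) and the mitochondrial HSP70 gene Hspa9 (0.20) were higher in CR too. Of the 2 cold-inducible genes counted, Rbm3, an RNA-binding protein induced by cooling, was higher in CR than in C (0.40 ± 0.11, adjusted p = 0.0366, limma). It was lower in INT than in CR (-0.39, adjusted p = 0.0442, limma). The other gene, Cirbp, was at 0.05 in both contrasts and called in neither.

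Several members had more than 1 transcript cluster, and the array may not separate a gene from its near-identical copies, since processed copies of chaperone genes are common in the mouse genome. Hsp90aa1 had 3 clusters, with Wy differences of 0.53 to 0.57, and Hspa8 3, with 0.11 to 0.12. Hspe1 had 2 (0.27 and 0.28) and Hspd1 2 (0.14 and 0.15). For Dnaja1 the CR minus C difference was -0.51 in the second cluster, against -0.30 in the one used, and the Wy difference was 0.24 against 0.16. Which of a member's clusters lies at its own locus and which at a copy was not settled. Hspb1 had 3, of which 2 gave a body weight difference in C and MF of 1.52 and 1.50, and the third, with a mean of 3.71, was below the filter on dim genes. Bag3, Hsph1 and Dnajb1 had 1 each.

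The genes outside the list whose profile over the 16 arrays was most like the mean profile of the 9 members were Lrrc39 (Pearson r = 0.904), Hacd1 (0.898), Ppp2r5c (0.897), Dusp3 (0.881) and Ptpn6 (0.878). The arrays share the treatment, and all 5 of these genes were higher with Wy, from 0.31 for the tyrosine phosphatase gene Ptpn6 to 1.56 for Lrrc39. The members' mean was itself higher with Wy in every pair but high MF, so this rise followed largely from how the genes were picked. Members were centred but not scaled, so that widely varying ones such as Hspb1 weighed more in the mean. Lrrc39 (1.01) and the phosphatase gene Dusp3 (0.44) were higher in the high weight class of C and MF mice as well. The mean profile itself ran from -0.36 in high CR mock to 0.32 in high C Wy.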

How the data were processed

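The deposited values were log2 intensities that the authors made with robust multi-array averaging (RMA; version not given in the sources used here), which corrects background, equalises the distributions of the arrays and summarises probes. Because arrays are equalised, a shift shared by all genes cannot be seen. Of 35556 transcript clusters, 21218 had 1 gene in GEO's platform annotation, 1881 several and 12457 none. A gene was tested where its intensity exceeded 20 (log2 4.32) on at least 5 of 16 arrays. Differences were fitted with limma 3.58.1 in R 4.3.3, with Benjamini-Hochberg adjustment over 14275 genes, and a gene was called where this fell below 0.05. The Wy fit had the matched pair as a block, since the labels state matching by body weight within diet. To check the pairing, the high minus low difference of the mock mice was correlated with that of the Wy mice over all tested genes. This gave 0.531 in C, 0.564 in MF, 0.0839 in INT and -0.169 in CR. Diet fits had treatment and body weight class as terms, and body weight fits diet and treatment. The body weight effects in C and MF and in CR and INT came from a model of diet by class with treatment. Errors are SE of the fit. The fits were tested on simulated data.

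The members and gene lists were chosen with earlier results of these data known. Of each other list, the text names up to 3 called genes with the smallest p, and of some lists also genes that were not called. It further names the 5 genes outside the members with profiles most like theirs. Of 166 listed genes 144 were tested. No 2 arrays were closer than 0.2016 log2 units in root-mean-square. The number of arrays limits the precision. The alternatives were no block or a random one, centring, 2 other filters, averaged clusters, a trended and robust fit, the first plate, each treatment alone, and each array left out.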

Additional observations from a re-analysis of the deposited data

Results flagged for a closer look

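In the 4 MF arrays, Hspa8 in the low MF mock array was at 12.56, while the nearest of the others was at 12.76 and the highest at 12.79, so that its gap took up 0.886 of the range. It was the 1 such gap in 63 groups of arrays examined, and chance gives about 1 in 20.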

How the results depend on the processing

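The 3 members called with Wy remained called in every alternative run, with differences of 0.47 to 0.55 for Bag3, 0.49 to 0.64 for Hsp90aa1 and 0.24 to 0.31 for Hspe1. The number called was 6 with arrays centred on their median, 6 without both arrays of the high MF pair, and 3 to 6 with 1 array left out. The Wy fit used complete pairs only, so leaving out 1 array took out its whole pair. The fit without the high MF pair is therefore the same as those without either of its arrays. The first plate alone is likewise the same as leaving out the high INT pair. Without the replicate block the number called was 4, Hspd1 being added (adjusted p = 0.0435, limma). Hspd1 was called in 7 of 24 alternatives, identical fits counted separately. Its adjusted p ran from 0.0166 to 0.13 over all of them (limma).

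The number called by diet, 1, was 0 with the first plate code only, 0 in mock arrays only and 0 in Wy arrays only, and 0 to 1 with 1 array left out. With the pair as a random block the CR minus C difference of Dnaja1 had an adjusted p of 0.0567 (limma). The 2 called by body weight in C and MF became 0 in C mice alone, 1 in MF mice alone, and 0 to 3 with 1 array left out. Fits with fewer arrays have fewer degrees of freedom. No call changed direction, and the counts for body weight over all diets and for both interactions were 0 throughout. The number of arrays, with 1 mouse per combination of diet, treatment and class, limits the precision.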
